A study of Homo sapiens with 4 samples.

Results

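The 9 genes described here encode histone variants that cells make outside S phase as well as within it: H1F0, H2AFJ, H2AFX, H2AFY, H2AFY2, H2AFZ, H2AFV, H3F3A and H3F3B. They were taken from the deposited tables by symbol, and all 9 were found among 58870 rows. RNA came from the human foreskin fibroblast line BJ, in 2 libraries of Dox-treated cells and 2 libraries of DMSO-treated cells. The Dox cells, titled aged in the labels, were given the agent abbreviated Dox at 250 nM for 24 hours and were then left to senesce for 10 days, in the order that the series design gives. The control cells, titled young, received the solvent DMSO on the same schedule, and the labels name no allele or transgene in either group. Whether replicates came from separate cultures is not stated in the labels, and the p-values therefore reflect variation among these libraries alone, which may be technical.

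Most histone genes are expressed in S phase, lie in clusters, lack introns and yield messages that end in a stem-loop instead of a poly(A) tail. Replication-independent variants are instead expressed through the cell cycle, mostly from polyadenylated messages, and they replace or supplement the replicative histones between divisions. H3.3, encoded by both H3F3A and H3F3B, is placed at active genes and at repeats by dedicated chaperones. H2A.Z, encoded by H2AFZ and H2AFV, marks promoters, macroH2A carries a large extra domain and is enriched in silent chromatin, H2A.X is phosphorylated next to DNA breaks, and H1.0 is a linker histone that accumulates in non-dividing cells. H2A.J protein has been described as accumulating in senescent human fibroblasts with persistent DNA damage.

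Transcripts of 5 of the 9 genes fell in Dox cells: those of H2AFZ, H2AFV, H3F3A, H3F3B and H2AFY2. The other 4, H2AFX, H2AFJ, H1F0 and H2AFY, did not pass the test, and 0 rose. The fall was largest for H2AFZ, to 0.564 of the DMSO level, and lay between 0.665 and 0.722 of it for the other 4 genes that fell. Expected counts, RSEM's estimate of reads per gene, were rounded and tested with edgeR (quasi-likelihood F, Benjamini-Hochberg over 16749 genes, threshold 0.05). Over all tested genes 13.8% were called lower and 16.5% higher in Dox, 30.3% in either direction. The median log2 fold change was -0.47 over the 9 genes and -0.0023 over all tested genes. Both Dox libraries lay below both DMSO libraries for 6 of the 9 genes and above them for 1, where the background was 34.5% and 34.6%. In bulk RNA, a change in the share of cells that express a gene cannot be told apart from a change in RNA per cell.

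Library totals were 42880652 and 43429396 counts for Dox and 42744724 and 47798919 counts for DMSO, of which the 9 genes took 0.0507% and 0.0537% in Dox against 0.0672% and 0.0687% in DMSO. All 9 passed the filter on low counts in both groups. All 10 genes of a proliferation list were lower in Dox (median log2 fold change -1.34), for example TOP2A at 14.0 and 13.1 CPM in Dox against 36.0 and 35.3 CPM in DMSO, and CDK1 at 2.57 and 2.38 CPM against 8.67 and 9.32 CPM in DMSO. CPM are counts scaled to a common library size after TMM adjustment. The part of this fall in proliferation transcripts in the values of the histone variants was not tested. All 9 fibroblast markers were expressed and moved both ways: 4 rose (VIM, LUM, DCN and THY1), 3 fell (PDGFRB, PDGFRA and COL3A1) and COL1A1 and COL1A2, the most abundant, did not pass. Their summed levels were 22186 and 27279 CPM in Dox and 29841 and 29414 CPM in DMSO. Of 5 leukocyte markers, CD68 and PTPRC rose and CD14 did not pass. LYZ had at most 5 counts in any library, and AIF1 was at 0 in all 4 libraries. The 5 summed to 26.5 and 28.6 CPM in Dox and 6.49 and 6.14 CPM in DMSO. Most of this was CD68, at 23.9 and 26.1 CPM in Dox and 6.01 and 5.57 CPM in DMSO. Endothelial markers summed to 0.561 and 0.595 CPM in Dox and 0.0958 and 0.171 CPM in DMSO. Melanocyte markers summed to 0.281 and 0.441 CPM in Dox and 0.311 and 0.299 CPM in DMSO. Keratinocyte markers summed to 12.6 and 10.9 CPM in Dox and 10.3 and 10.2 CPM in DMSO, with KRT5 and KRT1 at 0 everywhere. Most of the keratinocyte sum was KRT10, at 12.3 and 10.6 CPM in Dox and 9.85 and 9.94 CPM in DMSO. The part of these markers in the results was not tested.

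Promoter sequence is shown for H2AFZ, H2AFV and H3F3B, whose transcripts fell, and for H2AFX, a gene that did not pass the test and holds the same kinds of element as H2AFZ. Sequences are those of RefSeq (GRCh38.p14), 5′ to 3′ on the gene's strand, from 250 bases before the transcription start to 30 bases from it, with motif matches in capitals. The H2AFZ window lies at chr4:99950246-99950525, that of H2AFV at chr7:44848058-44848337, that of H3F3B at chr17:75779750-75780029 and that of H2AFX at chr11:119095436-119095715, all on the minus strand.
H2AFZ: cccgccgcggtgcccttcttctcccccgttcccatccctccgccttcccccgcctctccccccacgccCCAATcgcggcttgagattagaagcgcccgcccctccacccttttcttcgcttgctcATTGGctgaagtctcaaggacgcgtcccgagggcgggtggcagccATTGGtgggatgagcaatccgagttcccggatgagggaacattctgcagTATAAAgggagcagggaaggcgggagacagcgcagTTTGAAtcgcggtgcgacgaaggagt
H2AFV: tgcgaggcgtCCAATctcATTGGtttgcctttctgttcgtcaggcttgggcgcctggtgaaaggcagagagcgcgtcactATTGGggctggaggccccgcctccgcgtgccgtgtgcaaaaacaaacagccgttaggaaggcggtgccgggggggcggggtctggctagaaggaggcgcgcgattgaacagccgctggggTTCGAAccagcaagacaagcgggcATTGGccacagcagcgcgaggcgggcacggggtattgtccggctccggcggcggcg
H3F3B: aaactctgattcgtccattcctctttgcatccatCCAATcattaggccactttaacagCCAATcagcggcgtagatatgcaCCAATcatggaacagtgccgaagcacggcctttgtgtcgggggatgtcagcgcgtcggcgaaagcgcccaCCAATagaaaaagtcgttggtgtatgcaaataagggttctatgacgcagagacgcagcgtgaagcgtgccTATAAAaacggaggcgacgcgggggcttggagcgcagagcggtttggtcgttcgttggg
H2AFX: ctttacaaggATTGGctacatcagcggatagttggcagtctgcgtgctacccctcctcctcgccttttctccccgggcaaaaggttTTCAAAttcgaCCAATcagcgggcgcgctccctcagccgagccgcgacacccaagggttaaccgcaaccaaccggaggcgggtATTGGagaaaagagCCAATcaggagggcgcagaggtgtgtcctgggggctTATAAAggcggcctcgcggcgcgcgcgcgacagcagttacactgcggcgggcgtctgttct
The motifs were searched on both strands in windows of 250 bases before and 50 bases after the start, and no match overlaps another within a window. They were the CCAAT box, bound by NF-Y; the E2F letters, which start with TTT, go on with a pair of bases that are each C or G, and end with CGC; the cell cycle element CHR as TTTGAA or TTCGAA; the TATA letters TATAAA; and the H1 box AAACACA. RefSeq windows matched 8 of the 9 genes, and H1F0 had none in the table. CCAAT stood in 9 of the 12 windows, covering 7 of the 8 genes, against 34.6% of all 35116 windows. H2AFV, H3F3B and H2AFX held 4 CCAAT matches each, H2AFZ and H2AFJ held 3 each and H2AFY2 held 0. A CHR match stood in H2AFZ, H2AFV and H2AFX, against 16.4% of all windows, and in H2AFZ it began 5 bases into the transcript. TATAAA stood in H2AFZ, H3F3B and H2AFX (11.5% of all windows), 31, 29 and 31 bases before the start. No window of these genes held any of the E2F letters, which 3.31% of all windows hold, and the H1 box stood at 1 site of H3F3A, which lies in 2 of its 4 windows because these overlap (5.64% of all windows). H2AFZ, which fell, and H2AFX, which did not pass, were the 2 genes that held all of CCAAT, CHR and TATAAA, while of the other genes that fell H2AFV lacked TATAAA, H3F3B lacked CHR, H3F3A lacked both and H2AFY2 held no match. A match is a description of letters and not a bound site.

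H2AFZ encodes the main H2A.Z protein, an H2A variant of promoter nucleosomes. The gene lies on chromosome 4, 99948086 to 99950388 in GENCODE 29 (GRCh38), the source of all gene coordinates given here. H2AFZ transcripts stood at 55.3 and 54.1 CPM in Dox libraries, against 95.2 and 98.8 CPM in DMSO libraries. The groups lay far apart, with replicates within a few CPM of each other. The log2 fold change was -0.83 (SE 0.07, edgeR adjusted p = 0.000665), and 5.51% of tested genes had a lower value. H2AFV encodes the second H2A.Z protein (chromosome 7, 44826791 to 44848083). It stood at 45.2 and 43.2 CPM in Dox and 63.1 and 64.1 CPM in DMSO, again without overlap (log2 fold change -0.52, SE 0.07, edgeR adjusted p = 0.00298). Both H2A.Z genes thus fell. The log2 ratio of H2AFZ over H2AFV TPM, a length-scaled unit taken here within each library, was 1.29 and 1.21 in Dox against 1.497 and 1.550 in DMSO. These ratios did not overlap, but an exact permutation test of 2 against 2 libraries, two-sided here and throughout, cannot go below p = 0.333, the value it gave (difference -0.27).

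**Figure D1:**
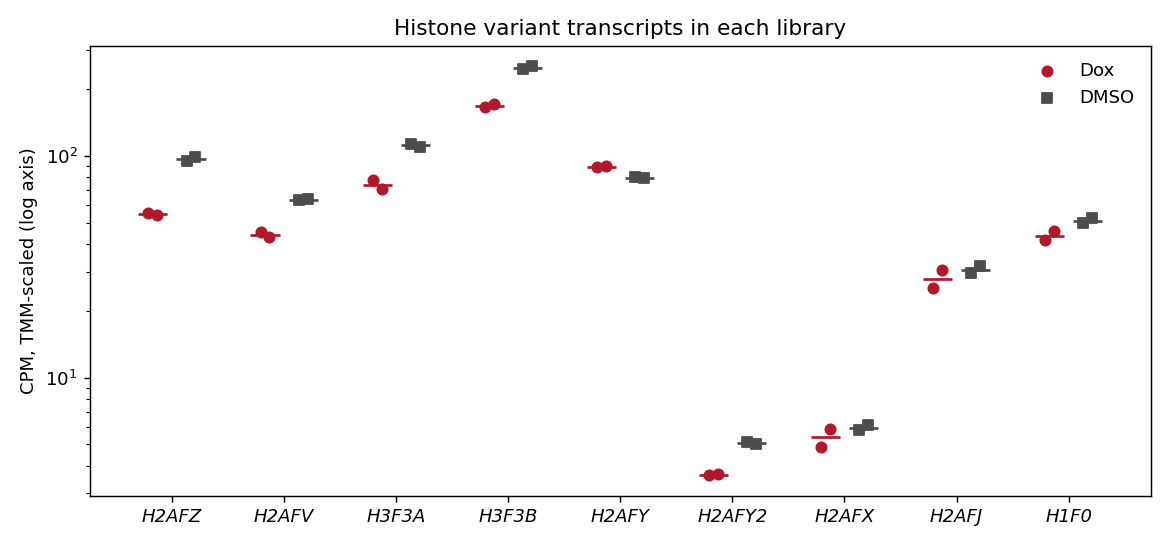
Transcript level of each variant gene in every library, as CPM on TMM-scaled library sizes on a log axis; circles are the 2 Dox libraries, squares the 2 DMSO libraries and bars the group means. H2AFZ stands at 55.3 and 54.1 CPM in Dox against 95.2 and 98.8 CPM in DMSO, and H2AFX and H2AFJ are the 2 genes whose groups overlap.

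H3F3A and H3F3B encode the same H3.3 protein from separate loci, on chromosome 1 (226061851 to 226072001) and chromosome 17 (75776434 to 75785893). H3F3B was the most abundant of the 9 transcripts in every library, at 166 and 171 CPM in Dox against 247 and 253 CPM in DMSO. H3F3A stood at 77.5 and 70.7 CPM in Dox against 113 and 110 CPM in DMSO. Both genes fell without overlap and by nearly equal amounts, with log2 fold changes of -0.57 (SE 0.07, edgeR adjusted p = 0.0025) for H3F3B and -0.59 (SE 0.08, edgeR adjusted p = 0.00325) for H3F3A. Without DMSO replicate 2, H3F3B no longer passed (-0.55). H3F3A shares reads with processed pseudogenes. Its 6 annotated pseudogenes took 53.9 and 182 expected counts in Dox and 106 and 195 in DMSO, almost all at H3F3AP4, and at most 5.37% of the summed counts. With those counts added, the log2 fold change of H3F3A was -0.58 (edgeR adjusted p = 0.00242). Summed over both genes, H3.3 transcripts stood at 244 and 242 CPM in Dox against 360 and 363 CPM in DMSO, a ratio of 0.672.

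Of the macroH2A genes, 1 fell and 1 missed the threshold. H2AFY encodes macroH2A1 (chromosome 5, 135333900 to 135399914) and H2AFY2 encodes macroH2A2 (chromosome 10, 70052796 to 70112280). H2AFY stood at 89.0 and 89.7 CPM in Dox against 80.3 and 79.2 CPM in DMSO. Its groups did not overlap, but the gene missed the threshold (log2 fold change 0.16, SE 0.07, edgeR adjusted p = 0.125). H2AFY2 was far scarcer, at 3.62 and 3.66 CPM in Dox against 5.10 and 4.99 CPM in DMSO, from 155 and 166 counts against 213 and 234 counts. It fell by 0.47 on the log2 scale (SE 0.13, edgeR adjusted p = 0.0423). H2AFY2 did not pass by DESeq2's Wald test (adjusted p = 0.155) or with the replicate number as a block (edgeR adjusted p = 0.0538). Nor did it pass when either DMSO library was left out. The log2 TPM ratio of H2AFY over H2AFY2 was 4.14 and 4.29 in Dox against 3.77 and 3.74 in DMSO, a difference of 0.46 (exact permutation p = 0.333, the smallest possible).

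H2AFX, H2AFJ and H1F0 did not pass. H2AFX (chromosome 11, 119093854 to 119095467), whose protein is the substrate of the DNA break kinases, stood at 4.84 and 5.89 CPM in Dox against 5.80 and 6.10 CPM in DMSO. The groups overlapped, and the log2 fold change of -0.15 had a 95% interval of -0.50 to 0.20 (edgeR adjusted p = 0.478). H2AFJ (chromosome 12, 14774383 to 14778002) stood at 25.3 and 30.4 CPM in Dox against 29.7 and 31.7 CPM in DMSO, also with overlap. Its log2 fold change was -0.14 with a 95% interval of -0.40 to 0.12 (edgeR adjusted p = 0.374). H1F0 (chromosome 22, 37805093 to 37807436) stood at 41.7 and 45.7 CPM in Dox against 49.7 and 52.2 CPM in DMSO. Both Dox values lay below both DMSO values, and the log2 fold change was -0.22 (SE 0.08, edgeR adjusted p = 0.0831). The intervals use the fit's 6.34 degrees of freedom and leave room for changes of either sign in H2AFX and H2AFJ.

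**Figure D2:**
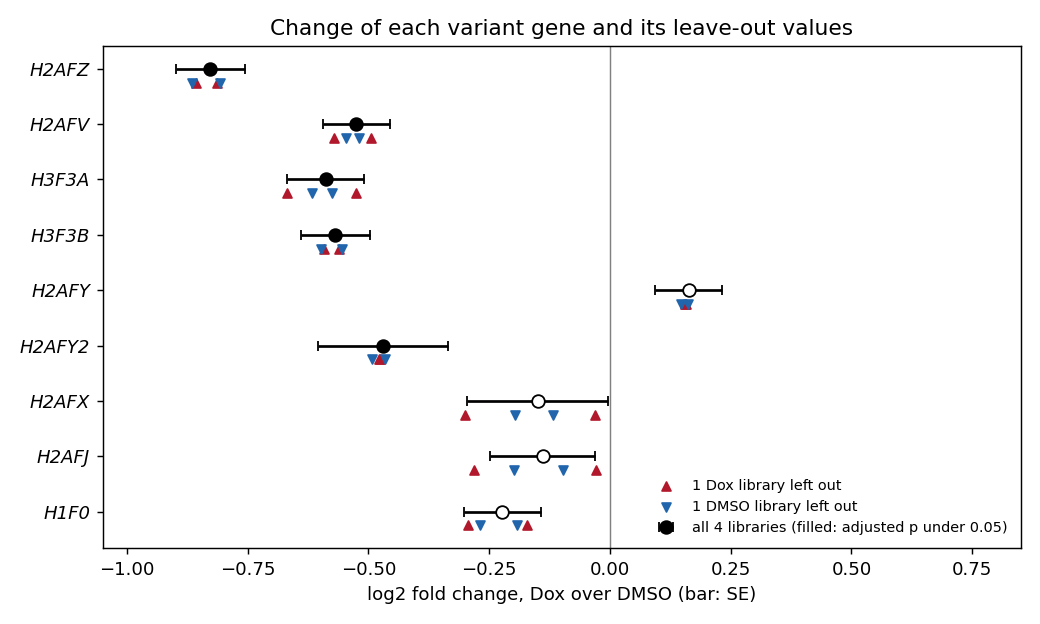
Log2 fold change of each variant gene, Dox over DMSO, with its SE; filled circles passed edgeR's test over all genes, open circles did not, and triangles give the value with 1 library left out. H2AFZ lies at -0.83 and the 4 others that passed between -0.59 and -0.47, while the leave-out values of H2AFX and H2AFJ spread from -0.30 to -0.03.

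The 2 Dox libraries lay further apart than the 2 DMSO libraries for H2AFX, H2AFJ, H1F0, H3F3A, H2AFV and, barely, H3F3B. The log2 ratio of Dox replicate 1 over Dox replicate 2 was -0.28 for H2AFX, -0.26 for H2AFJ and -0.13 for H1F0, against -0.07, -0.10 and -0.07 for the DMSO libraries. In Dox it was 0.13 for H3F3A, 0.07 for H2AFV, -0.042 for H3F3B, 0.03 for H2AFZ and -0.01 for both H2AFY and H2AFY2. In DMSO it was 0.05 for H3F3A, -0.02 for H2AFV, -0.039 for H3F3B, -0.05 for H2AFZ, 0.02 for H2AFY and 0.03 for H2AFY2. Over all tested genes this ratio of the Dox libraries fell with the GC content of the longest transcript (Spearman rho -0.62 across 16717 genes, which share the libraries and are not independent), while that of the DMSO libraries had a rho of -0.03. H2AFX has the highest GC content of the 9 genes at 66.4%, H1F0 has 53.2% and H3F3A the lowest at 40.5%. H2AFJ, whose Dox ratio was nearly that of H2AFX, has the second lowest GC content at 42.6%, against the direction of the trend over all genes. The part of GC content in the values was not tested beyond 1 setting: with offsets for each library's GC trend, H1F0 fell (-0.22, edgeR adjusted p = 0.00973) and H2AFY rose (0.18, edgeR adjusted p = 0.0327), while H2AFX and H2AFJ did not pass. Without Dox replicate 1 the log2 fold changes of H2AFX and H2AFJ were both -0.03. Without Dox replicate 2 they were -0.30 and -0.28. For H1F0 the value was -0.17 when the first Dox library was left out and -0.29 when the second was. For H2AFY it was 0.16 in either case. In such fits the estimate of spread comes from the DMSO pair alone. Chi-square per degree of freedom was 2.40 for that pair and 60.5 for the Dox pair. These fits therefore cannot decide whether a gene passes, and their fold changes alone are given.

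Levels were also compared between genes, as CPM per kilobase of effective transcript length. In DMSO the order was H3F3B (150 and 155), H2AFZ (139 and 144), H3F3A (130 and 125), H2AFJ (54.5 and 59.3), H2AFV (49.1 and 49.4), H2AFY (40.0 and 38.0), H1F0 (23.1 and 24.2), H2AFX (4.26 and 4.44) and H2AFY2 (2.93 and 2.86). No neighbours in that order overlapped. In Dox the order was H3F3B (103 and 126), H3F3A (89.6 and 81.4), H2AFZ (81.4 and 78.8), H2AFJ (49.8 and 61.7), H2AFY (37.1 and 40.8), H2AFV (33.2 and 33.9), H1F0 (19.4 and 21.3), H2AFX (3.57 and 4.22) and H2AFY2 (2.09 and 2.11). H2AFZ thus stood below H3F3A and H2AFV below H2AFY in Dox, the reverse of DMSO, although H3F3A and H2AFZ differed in Dox by less than the spread of H3F3A. H2AFY, whose CPM lay above DMSO in both Dox libraries, averaged 39.0 CPM per kilobase in each group.

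The lengths themselves varied between libraries. RSEM's gene length is the mean over a gene's transcripts weighted by their estimated abundance, so it moves with the mix of transcripts. For H2AFY, with 20 annotated transcripts, it was 2599 and 2389 bases in Dox against 2200 and 2276 bases in DMSO, without overlap. For H3F3B, with 13, it was 1807 and 1555 bases in Dox against 1830 and 1823 bases in DMSO, so Dox replicate 2 stood apart. H2AFJ, with 3, had 706 and 687 bases in Dox against 735 and 725 bases in DMSO. H2AFV had 1558 and 1466 bases in Dox and 1477 and 1488 bases in DMSO. H3F3A spanned 1062 to 1064 bases over the 4 libraries, H2AFZ 873 to 880 bases and H2AFX 1554 to 1589 bases, and H1F0 and H2AFY2 had a single value. No transcript-level values were used here, so the transcripts behind these shifts are not named.

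**Figure D3:**
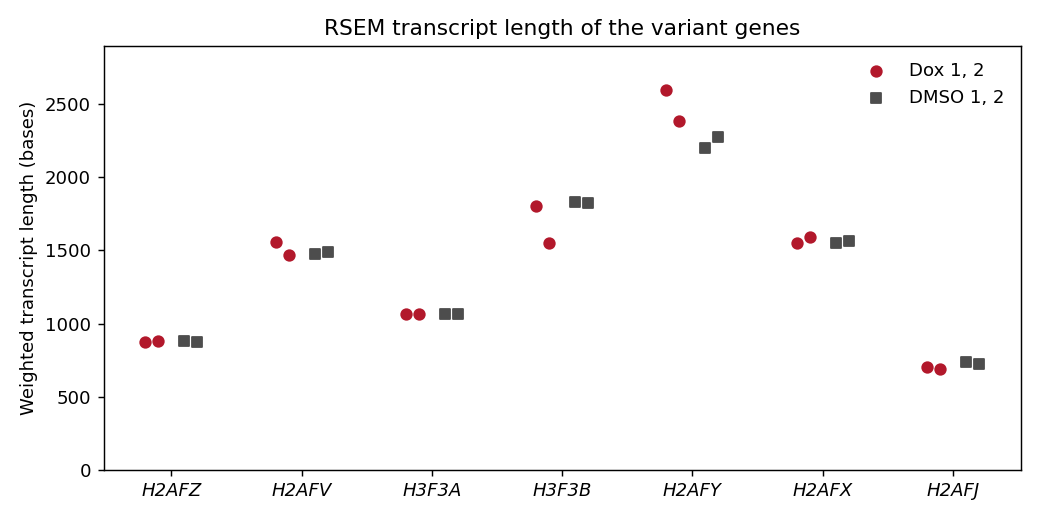
Abundance-weighted transcript length in bases that RSEM gave 7 of the variant genes in each library; circles are Dox libraries 1 and 2, squares DMSO libraries 1 and 2. H2AFY is longer in both Dox libraries (2599 and 2389 bases against 2200 and 2276 bases in DMSO), and for H3F3B the second Dox library alone stands lower, at 1555 bases.

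The lengths enter TPM, and the log2 TPM ratio of H3F3A over H3F3B was -0.20 and -0.63 in Dox against -0.21 and -0.31 in DMSO. These overlapped (difference -0.16, exact permutation p = 1), and without Dox replicate 2 the difference was 0.06. The log2 ratio of H2AFJ over H2AFX was 3.81 and 3.87 in Dox against 3.68 and 3.74 in DMSO (difference 0.13, or 0.01 from expected counts). Apart from the limma settings given at the end, TPM were not compared between libraries. Rows under 350 bases held 90.4% and 84.4% of all TPM in Dox and 89.2% and 88.8% in DMSO, so that H3F3B, with 7104 and 7760 counts in the Dox libraries, was listed at 25.5 and 49.8 TPM.

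Variant messages were next set against the replication-dependent genes of the same class within each library. All 75 rows whose symbols begin with HIST and lack the pseudogene mark PS were taken, HIST3H2A, HIST3H2BB and HIST3H3 included. GENCODE 29 types 70 of these rows as protein-coding and the rest as pseudogenes. Of 68 tested, 52 fell, 1 rose and 15 missed the threshold (their median over all 68 was -1.19 on the log2 scale), with HIST1H4J (-1.42) and HIST1H3G (-2.71) having the smallest adjusted p among those that fell. The row that rose was HIST2H2BD (0.56, edgeR adjusted p = 0.0464), and whether it is 1 of the pseudogene rows is not given here. Single histone genes have near-identical copies and their values are uncertain, so sums are given. The 15 replication-dependent H3 rows summed to 19.99 and 22.5 CPM in Dox against 68.1 and 70.0 CPM in DMSO, a ratio of 0.308, where the ratio for H3.3 was 0.672. By TPM, H3.3 made up 80.8% and 79.0% of H3 messages in Dox against 64.3% and 62.9% in DMSO. The H3.3 share was larger in both Dox libraries than in either DMSO library, while both H3.3 genes fell in level. The difference was 16.4 percentage points from TPM and 7.99 from expected counts.

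Among H2A messages, H2A.Z made up 27.02% and 24.18% of TPM in Dox against 28.51% and 28.99% in DMSO. Of the 4 kinds of H2A variant it was the 1 whose share lay below DMSO in both Dox libraries, with a difference of -3.15 percentage points, a difference of -1.73 without Dox replicate 2 and of -6.72 from expected counts. H2A.J made up 11.8% and 13.2% in Dox against 8.29% and 8.87% in DMSO, a difference of 3.91 points that was 1.18 from expected counts. The macroH2A genes made up 9.24% and 9.21% in Dox against 6.53% and 6.11% in DMSO, a difference of 2.91 points that was 7.69 from expected counts. H2A.X made up 0.841% and 0.903% against 0.646% and 0.665% in DMSO. The 17 replication-dependent H2A rows summed to 133 and 141 CPM in Dox against 191 and 189 CPM in DMSO, a ratio of 0.723, while the ratio was 0.616 for H2A.Z, 1.10 for macroH2A, 0.908 for H2A.J and 0.901 for H2A.X. Of the 16 of these rows that were tested, 11 fell and 5 did not pass, with a median log2 fold change of -1.41. The most abundant row, HIST1H2AC, stood at 74.6 CPM in both Dox libraries against 86.5 and 83.3 CPM in DMSO and did not pass. The difference between the ratios of H2A.Z and of the replication-dependent H2A rows was not tested.

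H1F0 made up 10.4% and 9.33% of the summed TPM of H1F0 and the HIST1H1 rows in Dox, against 7.12% and 7.60% in DMSO. The difference was 2.51 percentage points from TPM and 6.98 from expected counts. H1FX, a linker histone variant described below, is not counted in this share, nor is CENPA in those of H3. All 5 tested replication-dependent H1 genes fell, and together the 6 rows had 79.6 and 99.0 CPM in Dox against 146 and 144 CPM in DMSO. The log2 TPM ratio of H1F0 over the summed HIST1H1 genes was -3.10 and -3.28 in Dox against -3.70 and -3.60 in DMSO (difference 0.46). For each of these shares the groups did not overlap, and the exact permutation p was 0.333, the smallest that 2 against 2 libraries allows. The same holds for this H1 ratio and for that of H2AFJ over H2AFX.

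**Figure D4:**
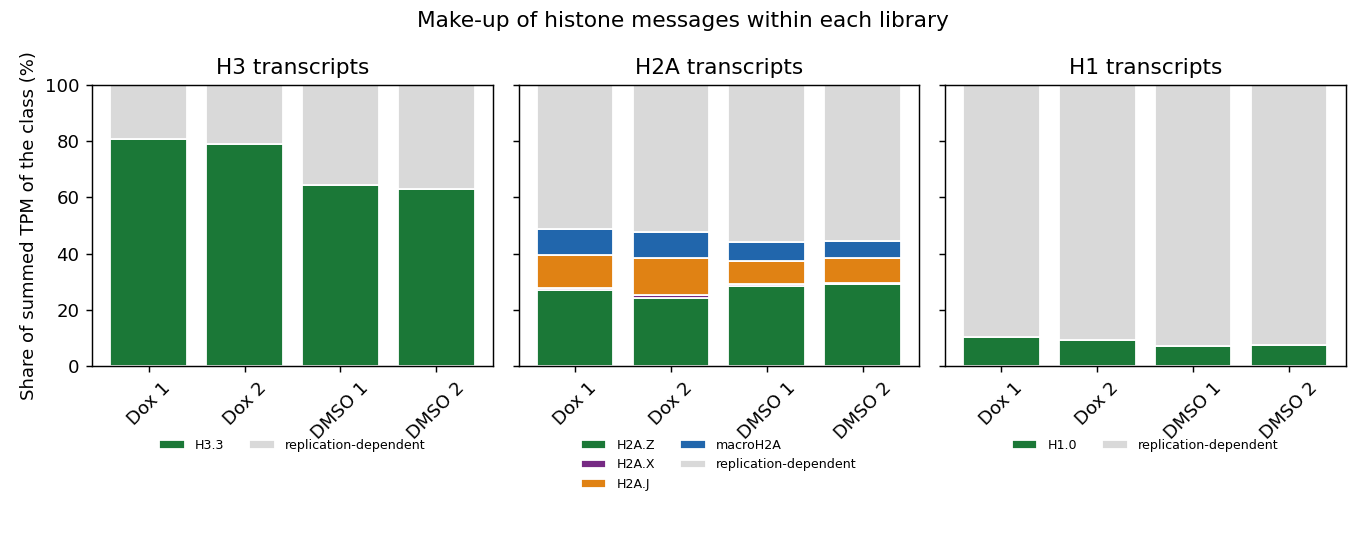
Share of summed TPM, in percent, of each variant and of the replication-dependent genes (grey) among H3, H2A and H1 messages, 1 bar for each library, Dox left of DMSO. H3.3 takes 80.8% and 79.0% of H3 messages in Dox against 64.3% and 62.9% in DMSO, and H2A.Z takes a smaller share of H2A messages in Dox. H1FX and CENPA are not counted.

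**Figure D5:**
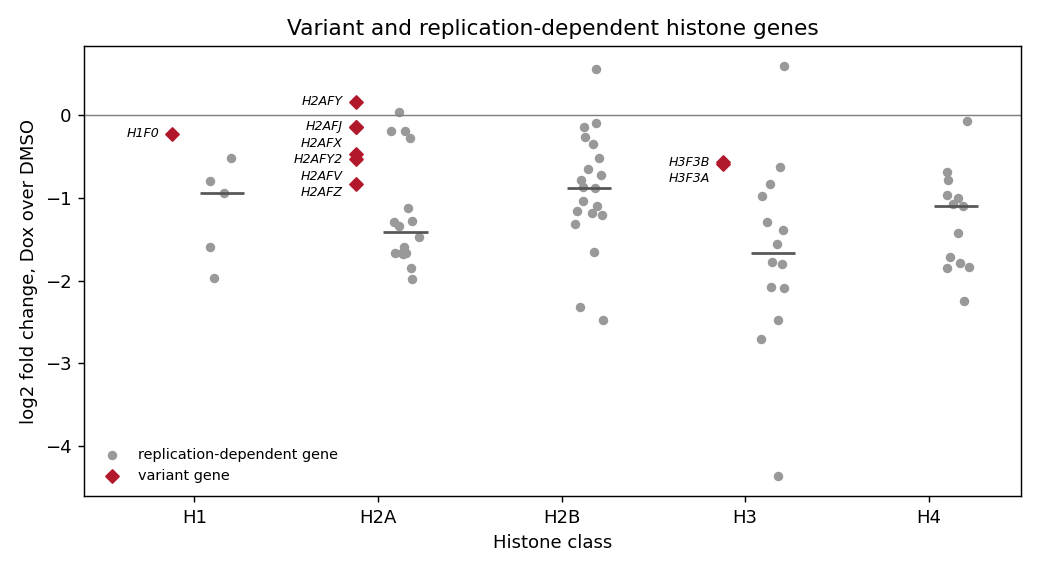
Log2 fold change, Dox over DMSO, of the variant genes (diamonds) and of the tested replication-dependent genes (grey circles, bar at their median) in each histone class. Both H3F3A (-0.59) and H3F3B (-0.57) lie above the median of the replication-dependent H3 genes (-1.67), and H1F0 (-0.22) above all 5 of its class.

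Most other variant genes were too scarce to test. Of 11 listed, 4 were tested, 1 fell and 3 did not pass. CENPA, the centromeric H3 variant, had 19 and 20 counts in Dox against 43 and 68 counts in DMSO (log2 fold change -1.49, SE 0.29, edgeR adjusted p = 0.0115). H1FX, a further linker histone variant, stood at 8.09 and 13.2 CPM in Dox against 14.2 and 14.4 CPM in DMSO (-0.43, edgeR adjusted p = 0.18). The log2 fold changes of HIST3H2A (-0.19) and HIST3H2BB (-0.52) did not pass. H3F3C, an H3.3-like gene, had at most 1 count in any library.

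Genes on a list of H3.3 deposition factors and histone chaperones, some of them not particular to H3.3, moved both ways. Of 12 tested, 1 rose, 4 fell and 7 missed the threshold (median of 0.11 on the log2 scale), against 16.5% higher and 13.8% lower over all tested genes. ATRX, the remodeller that deposits H3.3 at repeats together with DAXX, stood at 164 and 126 CPM in Dox against 87.7 and 85.2 CPM in DMSO (0.75, SE 0.13, edgeR adjusted p = 0.00744). NASP, a chaperone of H3 and H4, stood at 17.6 and 18.2 CPM in Dox against 25.5 and 26.1 CPM in DMSO (-0.53, SE 0.08, edgeR adjusted p = 0.00537). ASF1B, a chaperone linked to replication, had 27 and 44 counts in Dox against 108 and 103 counts in DMSO (-1.57, SE 0.25, edgeR adjusted p = 0.00618). DEK (-0.46, edgeR adjusted p = 0.0065) and ASF1A (-0.60, edgeR adjusted p = 0.00902) were the other genes of the list that fell. The HIRA complex genes HIRA (0.11), UBN1 (-0.16) and CABIN1 (0.24), as well as UBN2 (0.35) and the chaperone DAXX (0.12), did not pass.

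Among 25 tested genes of H2A.Z exchange, 3 rose, 5 fell and 17 did not pass (median -0.16), where 16.5% of all tested genes were higher and 13.8% lower. The 2 that rose with the smallest adjusted p, EP400 and SRCAP, encode large ATPases of exchange complexes. INO80, the namesake of another listed complex, did not pass (-0.05, edgeR adjusted p = 0.683). EP400 stood at 49.2 and 47.9 CPM in Dox against 33.3 and 31.2 CPM in DMSO (0.59, SE 0.08, edgeR adjusted p = 0.0027), and SRCAP at 23.2 and 28.3 CPM against 14.7 and 15.8 CPM in DMSO (0.76, SE 0.12, edgeR adjusted p = 0.00563). ACTL6A, an actin-related subunit, stood at 15.5 and 15.1 CPM in Dox against 22.3 and 23.2 CPM in DMSO (-0.57, SE 0.08, edgeR adjusted p = 0.00452), and ING3, a subunit of the TIP60 acetyltransferase complex, at 7.23 and 6.70 CPM against 9.63 and 9.73 CPM in DMSO (-0.48, SE 0.11, edgeR adjusted p = 0.0199). TRRAP also rose (0.33), and KAT5 (-0.51), VPS72 (-0.51) and YEATS4 (-0.47) were the other genes of the list that fell. ANP32E, a chaperone that removes H2A.Z, had a log2 fold change of -0.25 and did not pass (edgeR adjusted p = 0.124).

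Of 15 tested genes that modify or read H2A.X, 3 rose, 2 fell and 10 did not pass (median -0.04). Over all tested genes the shares were 16.5% higher and 13.8% lower. The break kinase ATM stood at 214 and 199 CPM in Dox against 162 and 157 CPM in DMSO (0.37, SE 0.08, edgeR adjusted p = 0.0137), and ATR at 65.8 and 60.0 CPM against 50.75 and 47.97 CPM in DMSO (0.35, SE 0.08, edgeR adjusted p = 0.0203). SSRP1 (-0.57, edgeR adjusted p = 0.00636) and SUPT16H (-0.24, edgeR adjusted p = 0.0446), which together form the histone chaperone FACT, both fell. Of the 4 genes tied to macroH2A, ATRX rose, and APLF (0.20), HELLS (0.02) and PARP1 (-0.15) did not pass. Of 7 genes that process histone messages, LSM11 (-0.41, edgeR adjusted p = 0.02) and SLBP (-0.32, edgeR adjusted p = 0.0292), which binds the stem-loop, fell, 0 rose and 5 did not pass (median -0.08).

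Over the 4 libraries, the genes whose centred log2 CPM lay nearest to those of H2AFZ, among the 13403 genes averaging 1 CPM or more, were FERMT2 (Euclidean distance 0.028), NRBF2 (0.033) and SGPL1 (0.037). FERMT2, a focal adhesion gene, stood at 215 and 211 CPM in Dox against 379 and 385 CPM in DMSO. With 4 libraries in 2 groups, 44 genes lay within a distance of 0.1.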

How the data were processed

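RNA of 2 Dox and 2 DMSO libraries was measured, grouped by sample title. The submitters' processing notes list cutadapt, STAR, Picard, RSEM and the hg38 build, with versions, strand setting and annotation release not given in the sources used here. The deposited expected counts, estimated reads per gene, and the deposited TPM and FPKM have these units per the file headers. FPKM entered no result. RSEM lengths in bases are also per the file headers.

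Expected counts were rounded, filtered with filterByExpr (minimum count 10, minimum total 15), TMM-scaled and compared by the quasi-likelihood F test of edgeR with group as the only term. An SE was taken as the absolute fold change (log2) over the square root of F. R 4.3.3, edgeR 4.0.16, limma 3.58.1 and DESeq2 1.42.0 were used. The test was run on simulated counts with the same added spread for every gene and both groups. That check does not cover the wider spread of the Dox pair. The members, lists, named genes and alternatives were chosen with earlier results of these data known. Named genes were the 9 members, up to 2 that rose and 2 that fell with the smallest adjusted p in each list, members of short lists and the 3 genes nearest to H2AFZ; other listed genes were picked once values were known. Chi-square per degree of freedom for a replicate pair was 60.5 for Dox and 2.40 for DMSO. These values cannot show whether replicates were separate cultures, and each of the 4 libraries was entered singly. The edgeR test shares its estimate of spread between the groups, and the part of their unequal spread in the results was not tested. Gene identifiers matched GENCODE 29, with a differing version for H2AFY2, H2AFZ and H3F3A. GC content is that of a gene's longest GENCODE transcript, available for 99.8% of tested genes.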

Additional observations from a re-analysis of the deposited data

How the results depend on the processing

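Of 144 alternative values of the 9 fold changes, 113 kept their direction and side of the threshold, 20 lost the call, 8 gained one and 3 changed sign, and all 72 alternative shares kept their direction. The call of H2AFZ was lost with limma on log2(TPM + 1) (-0.66) and log2(TPM + 0.1) (-0.68), where 0 members passed, 0 at an unadjusted p under 0.05. These settings compare TPM between libraries, where rows under 350 bases held most of the TPM. Under the same 2 settings H2AFV gave -0.38 and -0.41, H3F3A -0.42 and -0.44, H3F3B -0.27 and -0.28 and H2AFY2 -0.13 and -0.28, while H2AFJ changed sign (0.10 and 0.10), as did H2AFX with a pseudocount of 1 (0.0038). Limma with a pseudocount of 1 called 0 genes higher and 0 lower (849 and 353 at an unadjusted p under 0.05), and with 0.1 it called 299 and 124, against 2764 and 2309 by edgeR and 2288 and 1847 by DESeq2. A test against a 1.5-fold change (glmTreat) called 787 higher and 480 lower and 1 member, H2AFZ; H2AFV (-0.52), H3F3A (-0.59), H3F3B (-0.57) and H2AFY2 (-0.47) did not pass. GC-trend offsets gave 3827 lower genes and 1 member higher, H2AFY (0.18), and H1F0 passed (-0.22). H2AFY2 did not pass with library totals (-0.41), DESeq2 (-0.47) or the replicate block (-0.47, adjusted p = 0.0538). The replicate numbers are not tied to a shared source in the labels, and same-numbered libraries deviated with a correlation of 0.042; the block gave 2972 higher and 2511 lower genes and changed no other member call. The cause of these changes was not tested.

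Leaving out 1 library gave 1368 to 4654 genes higher, 1000 to 5017 lower, 0 to 1 members higher and 3 to 8 members lower (6 without Dox replicate 1, 8 without Dox replicate 2, 4 without DMSO replicate 1 and 3 without DMSO replicate 2), with the lone library assumed to vary like the other group. Fold changes then ranged from -0.29 to -0.17 for H1F0, -0.28 to -0.028 for H2AFJ, -0.30 to -0.030 for H2AFX, 0.15 to 0.16 for H2AFY, -0.49 to -0.47 for H2AFY2 and -0.60 to -0.55 for H3F3B, and the difference in the H3F3A over H3F3B ratio from -0.37 to 0.056, positive without Dox replicate 2. The median of all genes moved to 0.06 with library totals, 0.06 and 0.13 with limma and 0.12 with no filter. Shares computed from protein-coding replication-dependent genes alone were an alternative added after seeing the data. With 2 libraries a group, no exact test of a share or ratio can reach the threshold.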
